A study of Homo sapiens with 26 samples.

Results

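Values of 10 genes of splicing control were followed across the plasma membrane APEX-seq libraries of HEK293T cells: the SR proteins SRSF2, SRSF3, SRSF5, SRSF6, SRSF7 and SRSF11, the SR-like factors TRA2A and TRA2B, and the kinases CLK1 and CLK4. They make up 10 of 25745 genes with deposited values, chosen by symbol as splicing factors and kinases whose transcripts hold poison exons or detained introns. Earlier results of these same libraries were known when they were chosen, so the labeled against control values below are a description and support nothing by themselves.

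APEX2, an engineered ascorbate peroxidase, oxidises biotin-phenol in the presence of peroxide, and the radicals formed attach biotin to molecules close to the enzyme. HEK293T is a human embryonic kidney line carrying the SV40 large T antigen. Cells stably expressed APEX2 fused to 1 of 4 constructs, of which Lyn11 and Lck face the inside of the membrane and CD28 and PDGFR the outside, and RNA bound by streptavidin beads was sequenced in 26 libraries. Lyn11 had 4 labeled and 4 control libraries, and Lck, CD28 and PDGFR had 3 of each, called biological replicates in the series' design text. All groups, controls included, are of the same line and carry the fusion of their construct. The labels give every group the same protocol of biotin-phenol for 30 min, 1 mM hydrogen peroxide for 1 min and a quench. Whether the controls received each of these steps is not known. The sources used here do not say which step the controls lacked, whether each stable line was a clone or a pool, or whether libraries kept strand.

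SR proteins carry RNA-recognition motifs and a tail rich in arginine and serine, bind exons and recruit the splicing machinery. CLK kinases phosphorylate that tail, which releases SR proteins from nuclear speckles. Several SR genes hold a poison exon, which carries an early stop codon and sends the transcript that includes it to nonsense-mediated decay (NMD), and the CLK1 and CLK4 genes are known for detained introns, spliced late in transcripts that stay in the nucleus.

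All 10 genes were annotated with at least 1 NMD transcript in GENCODE 29, where the median of the 15010 coding genes in the file was 0. They had a median of 13.5 transcripts, against 7 for all coding genes, and a median of 4 retained-intron transcripts, against 1. SRSF6 and SRSF11 had no retained-intron transcript. These features come from the rule that chose the genes and are given as a description. The authors' gene lengths matched the union of all annotated exons in 3810 of the 3815 genes where this could be checked. A value therefore pools coding, poison-exon and retained-intron forms, and a change in 1 form cannot be told apart from a change in all. The share of those exon bases that lies outside coding transcripts ran from 3.02% in SRSF2 and 5.83% in SRSF6 to 74.08% in TRA2B, with a median of 38.42% against 12.84% for all coding genes.

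**Figure D1:**
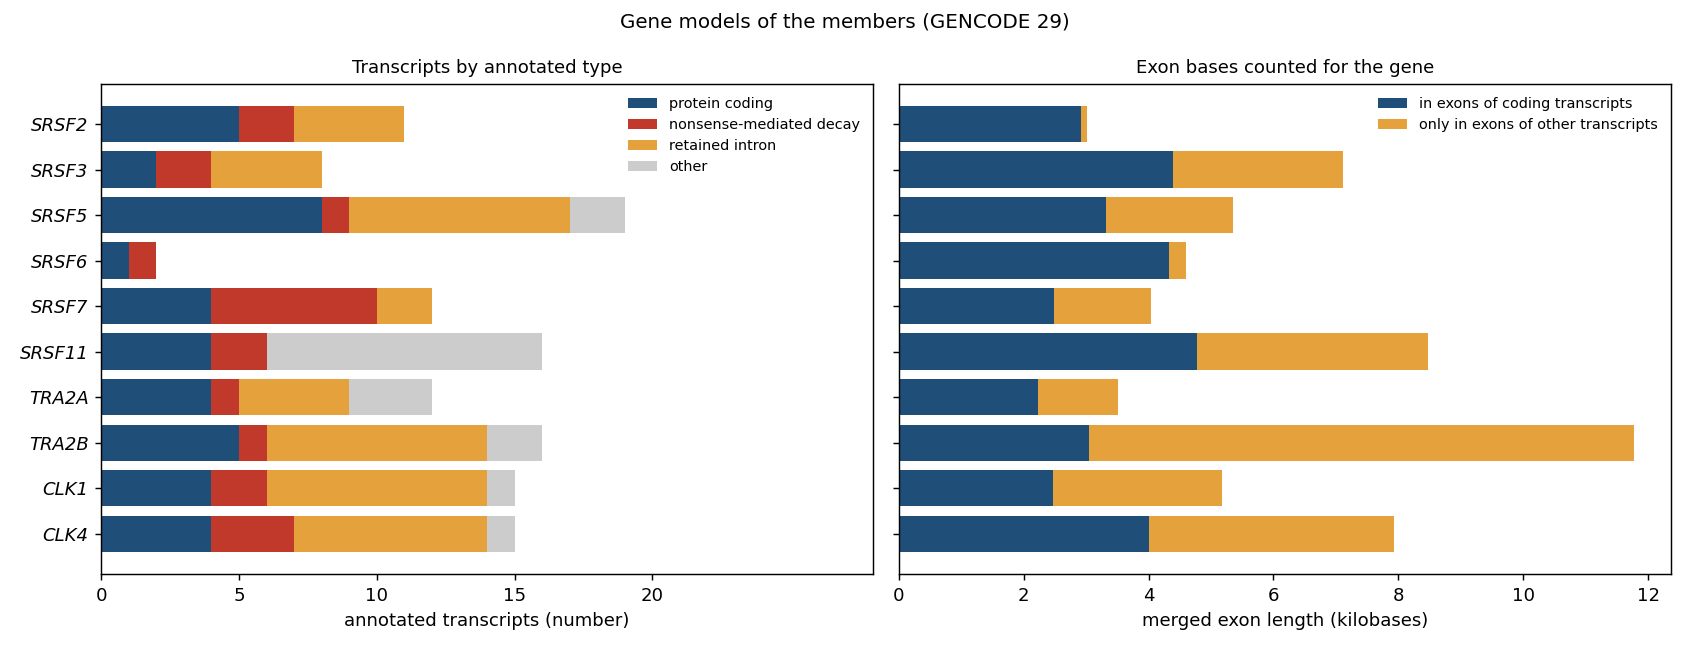
Annotated transcripts of each gene by type (left, number) and merged exon length split into bases in coding transcripts and bases only in other transcripts (right, kilobases), from GENCODE 29. TRA2B has the longest merged exons, 11769 bases, and SRSF6 the fewest transcripts, 2.

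In 4 of the 10 genes an NMD transcript ended at a stop codon inside an exon that no coding transcript holds. These stretches are shown because an early stop of this kind defines a poison exon, and the gene-level values below include reads from them. Each runs from the first base of the exon to its stop codon, which is in capitals, in GENCODE 29 on GRCh38 and 5′ to 3′ on the strand of the gene. The SRSF6 stretch is chr20:43459153-43459304 on the plus strand, the first 152 bases of a 268-base exon. The SRSF3 stretch is chr6:36599821-36599854 on the plus strand, 34 bases of a 456-base exon. The SRSF7 stretch is chr2:38749319-38749346 on the minus strand, 28 bases of a 449-base exon. The CLK4 stretch is chr5:178620565-178620673 on the minus strand, 109 bases of an 836-base exon. In all 4 the stop codon lies before the end of the exon. SRSF3 has 1 and SRSF7 has 2 further exons of this kind that are not shown, and the other 6 genes had none by this criterion. Of the 2 in SRSF7, 1 is a shorter 276-base form of the exon shown, with the same downstream end.
SRSF6: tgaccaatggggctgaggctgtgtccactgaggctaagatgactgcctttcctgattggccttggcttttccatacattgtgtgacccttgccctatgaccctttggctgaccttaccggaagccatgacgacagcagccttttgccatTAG
SRSF3: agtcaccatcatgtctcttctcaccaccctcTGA
SRSF7: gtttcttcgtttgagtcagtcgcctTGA
CLK4: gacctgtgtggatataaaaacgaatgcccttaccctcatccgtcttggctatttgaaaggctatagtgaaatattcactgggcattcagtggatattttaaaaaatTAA

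Levels are log2 FPKM, in which fragments are divided by exon length in kilobases and by library size. The authors added a small prior count, and whole read numbers could be recovered from the values. Read totals (M, mega) were 19.517 to 34.826 M per library for Lyn11 and Lck and 11.341 to 16.263 M for CD28 and PDGFR, so depth and side of the membrane cannot be told apart. The 2 libraries with the most genes at 0 reads were the second CD28 labeled replicate (3158 genes) and the second PDGFR control (3031 genes), where the others had 23 to 1541. Of 9 markers expressed by HEK293T, 8 were in the table and all 8 had a median log2 FPKM above 0. Their summed level was 466 to 645 RPM (reads per M mapped) in labeled and 483 to 670 RPM in control libraries. Summed markers of blood (7.69 to 14.8 labeled, 7.37 to 19.4 control), fibroblasts (45.7 to 105, 49.8 to 99.9) and carcinoma epithelium (3.88 to 12.0, 2.24 to 13.5) overlapped between labeled and control libraries, and no hepatocyte marker was in the table. In bulk RNA, fewer cells with a transcript and less of it per cell cannot be told apart. All 26 libraries are of bead-bound RNA, with no input library among them. A difference in labeling or capture therefore cannot be told apart from a difference in RNA amount in the cells. Words such as rose, fell and abundant below refer to the bead-bound RNA.

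In the 13 control libraries SRSF11 had the highest mean level, 5.51 ± 0.28 log2 FPKM (SD, n = 13), followed by SRSF6 (5.50 ± 0.20), SRSF3 (5.45 ± 0.28), TRA2A (5.32 ± 0.14), SRSF7 (5.31 ± 0.17), SRSF5 (5.22 ± 0.13) and SRSF2 (5.10 ± 0.28). TRA2B at 4.28 ± 0.15, CLK1 at 3.41 ± 0.26 and CLK4 at 2.12 ± 0.32 were lower (SD, n = 13). Neighbours among the first 7 were closer than the larger of their SDs, while the steps from SRSF2 to TRA2B, CLK1 and CLK4 each exceeded it. In the 13 labeled libraries the order began with SRSF6 at 6.09 ± 0.27 and SRSF3 at 5.86 ± 0.41, and TRA2B, CLK1 and CLK4 again came last, CLK4 at 1.54 ± 0.26 (SD, n = 13). FPKM divides by the whole merged exon length, so the share of non-coding-transcript exons given above enters each level. All 10 genes passed the filter on low values (log2 above 0 in at least 3 libraries). Their reads ran from 318 in the lowest CLK4 library to 14120 in the highest SRSF3 library.

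**Figure D2:**
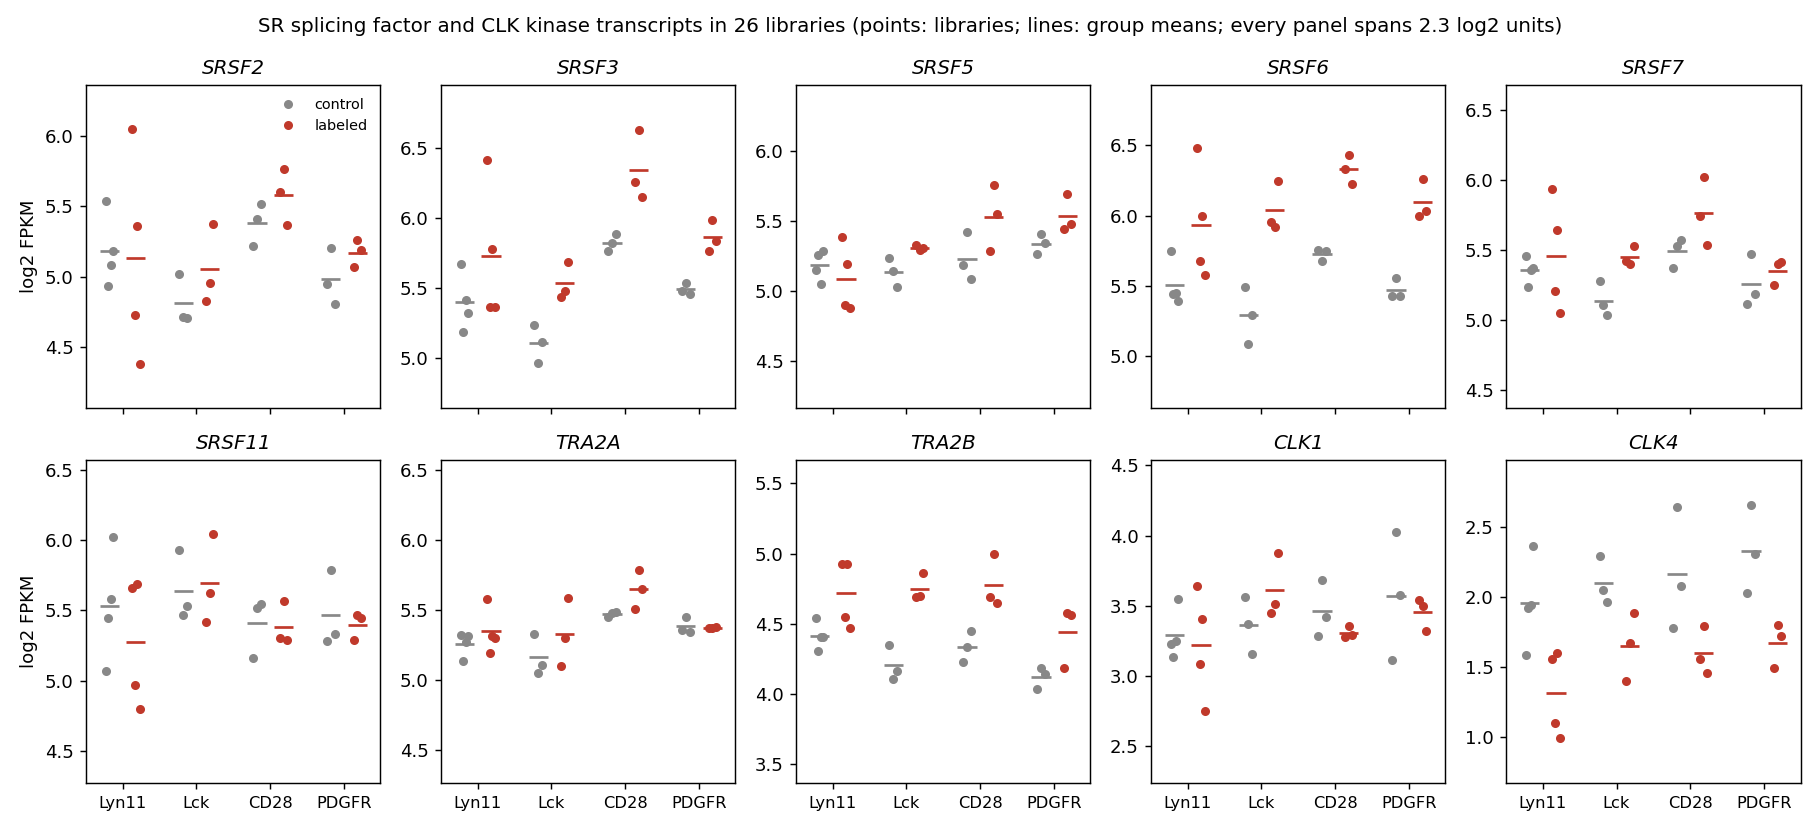
Log2 FPKM of each gene in every library by construct, controls in grey and labeled libraries in red, with a line at each group mean and the same span of log2 units in every panel. SRSF6 and TRA2B sit higher in labeled than control libraries of Lck, CD28 and PDGFR, and CLK4 sits lower in Lck and PDGFR.

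Averaging labeled minus control over the 4 constructs, 4 of the 10 genes were called: SRSF6, SRSF3 and TRA2B were higher and CLK4 was lower. Differences are on the log2 FPKM scale from limma, with a mean per group and 1 estimate of spread per gene over all 26 libraries. Each is given with its standard error, and called means a Benjamini-Hochberg adjusted p under 0.05 over the 22284 genes tested. The higher calls were 3 of 10 where 4.29% of all genes tested were called higher, and the lower call was 1 of 10 where 3.08% were. Since the genes were chosen with this contrast known, nothing is read from these shares. The median difference of the 10 genes was 0.14, against -0.01 for all genes tested.

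SRSF6, an SR protein of constitutive and regulated splicing, had the largest average difference of the 10, 0.60 ± 0.08 or 1.52-fold. In Lyn11 it read 6.48, 5.68, 6.00 and 5.57 log2 FPKM in labeled replicates 1 to 4, and 5.75, 5.44, 5.45 and 5.39 in the controls. In Lck it read 5.96, 5.92 and 6.25 labeled, and 5.49, 5.08 and 5.29 control. All 3 Lck labeled libraries lay above all 3 controls, while in Lyn11 labeled replicates 2 and 4 lay below control replicate 1, which stood above the other controls. In CD28 the values were 6.33, 6.43 and 6.23 labeled against 5.75, 5.67 and 5.75 control. In PDGFR they were 5.99, 6.26 and 6.03 labeled against 5.43, 5.55 and 5.43 control. Labeled and control did not overlap in either outside construct. The differences were 0.42 ± 0.15 in Lyn11, 0.75 ± 0.17 in Lck, 0.61 ± 0.17 in CD28 and 0.63 ± 0.17 in PDGFR. Without labeled replicate 1 the Lyn11 difference was 0.24. Its annotation is the simplest of the 10, 1 coding and 1 NMD transcript, the latter through the exon shown above.

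SRSF3, the smallest of the classical SR proteins, which also links splicing to mRNA export, was higher by 0.41 ± 0.09 on average, 1.33-fold. In Lyn11 it read 6.41, 5.37, 5.78 and 5.37 log2 FPKM labeled and 5.67, 5.19, 5.41 and 5.32 control. These groups overlapped, with labeled replicate 1 far above the rest. In Lck the values were 5.44, 5.48 and 5.68 labeled against 5.24, 4.97 and 5.11 control. In CD28 they were 6.25, 6.63 and 6.15 against 5.76, 5.82 and 5.88. In PDGFR they were 5.77, 5.98 and 5.83 against 5.48, 5.54 and 5.46. In each of these 3 constructs every labeled library was above every control. The differences were 0.33 ± 0.17 in Lyn11, 0.43 ± 0.19 in Lck, 0.52 ± 0.19 in CD28 and 0.37 ± 0.19 in PDGFR. Without labeled replicate 1 the Lyn11 difference was 0.11.

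The other 4 SR proteins were not called on average. SRSF7, close to SRSF3 in sequence and also an export adaptor, was higher in labeled libraries by 0.20 ± 0.08, with the same sign in all 4 constructs (0.10 in Lyn11, 0.31 in Lck, 0.27 in CD28 and 0.10 in PDGFR, log2 differences). The Lyn11 sign rests on labeled replicate 1, without which that difference was -0.05. Its labeled libraries were all above the controls in Lck, at 5.40 to 5.53 against 5.03 to 5.28 log2 FPKM, and overlapped them in the other 3. SRSF5, first described as an insulin-induced gene of liver cells, differed by 0.14 ± 0.06, with a negative value in Lyn11 (-0.10) and positive values in Lck (0.18), CD28 (0.30) and PDGFR (0.20). Its labeled and control groups did not overlap in Lck (5.29 to 5.33 against 5.03 to 5.23) or PDGFR (5.44 to 5.69 against 5.26 to 5.41).

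SRSF2, the speckle protein SC35, differed by 0.14 ± 0.13 and overlapped in every construct. It had the widest range of the 10 within a group, 4.38 to 6.05 log2 FPKM over the 4 Lyn11 labeled libraries. SRSF2 shares 1106 exon bases with MFSD11 on the opposite strand, and reads of the pair cannot be told apart if strand was not kept. MFSD11 itself had 269 to 931 reads, against 1208 to 4667 for SRSF2, and an average difference of 0.03 ± 0.08. SRSF11, an SR-related protein of the early spliceosome, differed by -0.07 ± 0.12, with overlap in every construct.

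TRA2B, the SR-like factor that binds GA-rich exons and promotes its own poison exon, was higher by 0.40 ± 0.07 on average, 1.32-fold. In Lyn11 it read 4.92, 4.55, 4.92 and 4.47 log2 FPKM labeled and 4.54, 4.31, 4.41 and 4.40 control. In Lck it read 4.69, 4.70 and 4.87 labeled and 4.35, 4.11 and 4.16 control. Only labeled replicate 4 of Lyn11 fell within its controls' range, and the Lck groups did not overlap. In CD28 the values were 4.69, 5.00 and 4.65 labeled against 4.23, 4.34 and 4.45 control. In PDGFR they were 4.19, 4.58 and 4.56 labeled against 4.03, 4.18 and 4.14 control. Neither outside construct overlapped, although PDGFR labeled replicate 1 and the highest control were nearly equal, with less than 0.01 between them. The differences were 0.30 ± 0.12 in Lyn11, 0.55 ± 0.14 in Lck, 0.44 ± 0.14 in CD28 and 0.32 ± 0.14 in PDGFR.

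TRA2A, the paralog of TRA2B, differed by 0.10 ± 0.06 and was not called. Its differences were 0.09 in Lyn11, 0.16 in Lck, 0.17 in CD28 and -0.01 in PDGFR. CD28 was the only construct in which its groups did not overlap, at 5.51, 5.78 and 5.65 log2 FPKM labeled against 5.45, 5.48 and 5.49 control. The log2 ratio of TRA2B to TRA2A inside a library removes whatever both share. Labeled minus control of that ratio was 0.21 in Lyn11, where the groups overlapped, and 0.38 in Lck, 0.27 in CD28 and 0.33 in PDGFR, where all labeled libraries lay above the controls. The ratios here and below pair genes chosen after their values were seen and carry no test. How often the ratios of other gene pairs separate labeled from control libraries was not counted.

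CLK4, a nuclear kinase of SR proteins and the least abundant of the 10, was lower in labeled libraries by -0.58 ± 0.12 on average, a ratio of 0.670. In Lyn11 it read 1.56, 1.10, 1.60 and 0.99 log2 FPKM labeled and 1.59, 1.92, 1.94 and 2.36 control. In Lck it read 1.40, 1.67 and 1.89 labeled and 2.29, 2.05 and 1.97 control. The Lck groups did not overlap, and in Lyn11 labeled replicate 3 lay just above the lowest control. In CD28 the values were 1.56, 1.79 and 1.46 labeled against 1.78, 2.64 and 2.08 control. In PDGFR they were 1.49, 1.80 and 1.72 labeled against 2.03, 2.66 and 2.31 control. PDGFR did not overlap, and CD28 did through labeled replicate 2 and control replicate 1, which were nearly equal. The differences were -0.64 ± 0.21 in Lyn11, -0.45 ± 0.24 in Lck, -0.56 ± 0.24 in CD28 and -0.66 ± 0.24 in PDGFR. Without control replicate 2 the CD28 difference was -0.32. CLK4 shares 161 exon bases with the small RNA gene RN7SKP70 on its own strand, which had 0 to 38 reads where CLK4 had 318 to 962.

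CLK1, the best studied kinase of the family, had an average difference of -0.02 ± 0.10, with 0.25 in Lck and negative values in Lyn11 (-0.07), CD28 (-0.15) and PDGFR (-0.12). The sign turned in Lyn11 without labeled replicate 4 (0.09) or control replicate 4 (0.02), and in PDGFR without control replicate 2 (0.11). Its labeled and control libraries overlapped in all 4 constructs. The log2 ratio of CLK4 to CLK1 inside a library averaged -1.90, -1.96, -1.70 and -1.78 in labeled libraries of Lyn11, Lck, CD28 and PDGFR. In controls it averaged -1.34, -1.26, -1.30 and -1.24. Labeled libraries lay below controls without overlap in all 4 constructs, by -0.57, -0.70, -0.41 and -0.54. CLK4 alone overlapped in Lyn11 and CD28. This pair too was chosen after its values were seen, so the separation by the ratio is only a description. Both kinase genes are annotated with many retained-intron transcripts, 7 in CLK4 and 8 in CLK1.

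**Figure D3:**
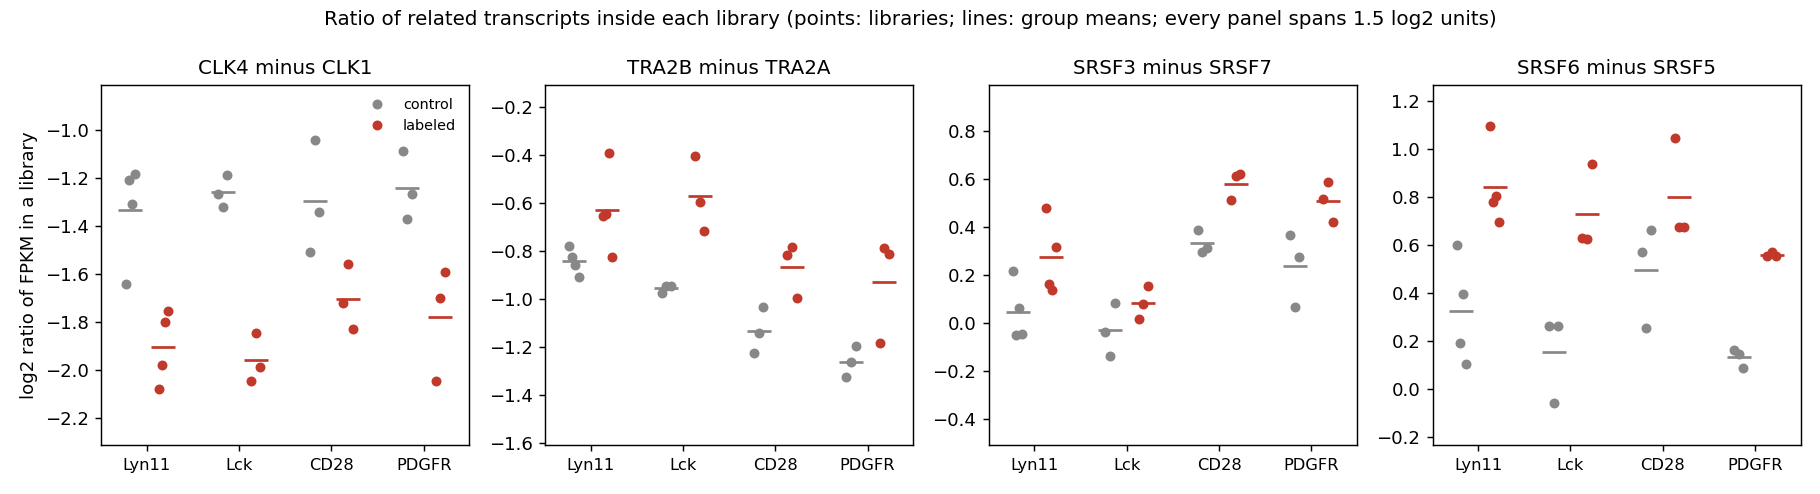
Log2 ratio of FPKM between related genes inside each library, controls in grey and labeled libraries in red, with a line at each group mean. CLK4 to CLK1 is lower and SRSF6 to SRSF5 higher in labeled libraries of all 4 constructs without overlap, and TRA2B to TRA2A overlaps in Lyn11 alone. The pairs were chosen after their values were seen, and other gene pairs were not counted.

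Pairs of SR proteins were compared in the same way and with the same limits. SRSF6 to SRSF5 was higher in labeled libraries without overlap in all 4 constructs, by 0.52 in Lyn11, 0.57 in Lck, 0.30 in CD28 and 0.43 in PDGFR, in log2 units. SRSF3 to SRSF7 was higher by 0.25 in CD28 and 0.27 in PDGFR without overlap, and by 0.23 in Lyn11 and 0.11 in Lck with overlap.

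Within single constructs few of the 10 genes were called. The fit shares 1 spread per gene, although the spread of libraries about their group means differed between constructs. Over all genes the SD of a library was 0.29 to 0.37 in Lck and 0.36 to 0.60 in Lyn11. It was 0.61 to 1.13 in CD28 and 0.77 to 1.19 in PDGFR. The limma shares of all genes below rest on the shared spread. In Lyn11 none of the 10 was called, against 0.579% of all genes tested. Limma voom on the recovered reads called 0, where it called 205 of all genes higher and 14 lower. An unadjusted p under 0.05 by limma was reached by 3 of the 10 and by 1260 of the 22284 genes tested. In Lck SRSF6 was called, against 0.794% of all genes. That count was 0 without any 1 of the 6 Lck libraries or without Lyn11 control replicate 3. By limma voom it was 2, with TRA2B added, where 271 of all genes were called higher and 16 lower. In CD28 none was called, against 0.476%, and 0 by limma voom, where 14 of all genes were called higher and 7 lower. There 5 of the 10 and 3017 of all genes tested had an unadjusted p under 0.05 by limma. In PDGFR none was called, against 2.13%, and 0 by limma voom, where 57 of all genes were called higher and 11 lower. There 3 of the 10 and 3131 of all genes tested had an unadjusted p under 0.05 by limma.

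Groups that did not overlap were counted in the same way. In Lyn11 no gene was separated, where 3.4% of all genes were higher and 1.91% lower without overlap. In Lck 5 genes were higher (SRSF3, SRSF5, SRSF6, SRSF7 and TRA2B) and CLK4 lower, where 12.9% and 13.2% of all genes were. In CD28 4 were higher (SRSF3, SRSF6, TRA2A and TRA2B) and none lower, where 7.44% and 6.59% were. In PDGFR 4 were higher (SRSF3, SRSF5, SRSF6 and TRA2B) and CLK4 lower, where 7.53% and 6.39% were. SRSF3, SRSF6, SRSF7 and TRA2B had a positive difference in all 4 constructs (SRSF7 not without Lyn11 labeled replicate 1), as did 12.4% of all genes, and CLK4 a negative one, as did 13.5%.

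**Figure D4:**
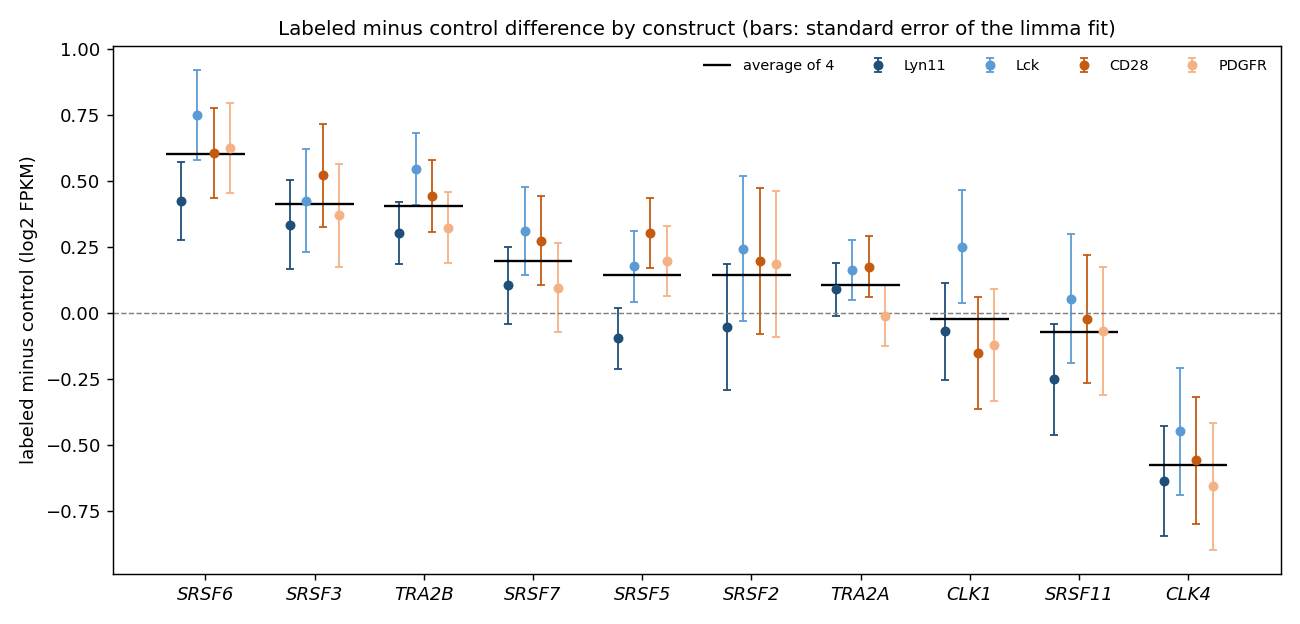
Labeled minus control difference in log2 FPKM of each gene in the 4 constructs, with bars for the standard error of the limma fit and a black line for the average of the 4. SRSF6 averages 0.60 and CLK4 -0.58, and the 4 values of each lie on the same side of 0.

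The labeling differences were not shown to depend on the construct. Inside minus outside called none of the 10 and 0.00449% of all genes, Lyn11 minus Lck none and 0.0%, and CD28 minus PDGFR none and 0.0494%. In all 3, 0 of the 10 had an unadjusted p under 0.05 by limma, where 1453, 71 and 2079 of all genes tested did. Limma voom called 0 of the 10 and 0 of all genes in all 3. The intervals were wide. Inside minus outside was -0.03 for SRSF6 (95% interval -0.37 to 0.31), -0.07 for SRSF3 (-0.46 to 0.33), 0.04 for TRA2B (-0.23 to 0.31) and 0.06 for CLK4 (-0.42 to 0.55). All 10 genes had a lower difference in Lyn11 than in Lck, by -0.33 to -0.07. The median of this contrast over all genes tested was 0.004, and the share of all genes with that sign was not counted. The 10 genes varied together within groups, so their shared sign does not amount to 10 separate observations. The Lyn11 labeled libraries also differed among themselves: all 10 genes were higher in labeled replicates 1 and 3 than in replicates 2 and 4, as were 30.7% of all genes tested, an order noticed in the values. The SD of SRSF6 was 0.41 in these 4 libraries and 0.10 to 0.18 in the labeled groups of the other constructs.

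The average differences were computed again without the 2 libraries with the most genes at 0 reads, an alternative chosen after seeing the data. They were 0.60 for SRSF6, 0.38 for SRSF3, 0.38 for TRA2B and -0.56 for CLK4, all still called. With quantile normalization the CD28 differences were smaller, at 0.32 for SRSF6, 0.23 for SRSF3, 0.27 for TRA2B, 0.06 for SRSF5 and 0.02 for SRSF7, and those of TRA2A and SRSF2 changed sign, to -0.07 and -0.04.

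Control libraries alone compare the stable lines without the labeling contrast. Lyn11 minus Lck controls called none of the 10, against 0.0% of all genes, and CD28 minus PDGFR controls called none, against 0.269%. In both, 0 of the 10 had an unadjusted p under 0.05 by limma, where 1475 and 2980 of all genes tested did. Limma voom called 0 of the 10 in both, and over all genes 0 and 1. Inside minus outside controls called none, against 11.2% of all genes. Limma voom called 1 of the 10, where it called 1683 of all genes higher and 971 lower. An unadjusted p under 0.05 by limma was reached by 2 of the 10 and by a larger share of all genes, 5930 of the 22284 tested. Those 2 were SRSF3, at -0.40 ± 0.13 (limma adjusted p = 0.0542), and TRA2A, at -0.22 ± 0.08 (adjusted p = 0.0786). SRSF3 controls read 4.97 to 5.67 log2 FPKM in the inside lines and 5.46 to 5.88 in the outside lines, which overlap. The outside libraries were shallower throughout, and the part of depth in these differences was not tested.

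The rest of the splicing machinery was counted from lists that were also drawn up with earlier results known. For comparison, 4273 of the 22284 genes tested had an unadjusted p under 0.05 by limma on average, and limma voom called 1004 higher and 704 lower. Of 7 other SR proteins (SRSF1, SRSF4, SRSF8, SRSF9, SRSF10, SRSF12 and SREK1) none was called on average by limma or by limma voom, with 1 (SRSF12) at an unadjusted p under 0.05 and a median difference of 0.05. SRSF1 was at 0.04 ± 0.07, SRSF4 at 0.05 ± 0.05, and SRSF12 had the most negative value, -0.35 ± 0.13. Of 7 genes for other SR protein kinases and their importer (CLK3, SRPK1, SRPK2, SRPK3, PRPF4B, DYRK1A and TNPO3) none was called by limma or limma voom, with 2 (SRPK3 and DYRK1A) at an unadjusted p under 0.05 and a median of 0.00. CLK3, the third CLK kinase measured, was at 0.00 ± 0.07, SRPK1, the cytoplasmic SR kinase, at 0.00 ± 0.08, and the importer TNPO3 at -0.02 ± 0.06. CLK2 was not analysed here.

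Among 18 SR-related speckle proteins 2 rose and none fell, where 4.29% of all genes rose and 3.08% fell, with a median of -0.05. RSRP1 rose by 0.24 ± 0.05 (limma adjusted p = 0.00573). RSRC2 rose by 0.35 ± 0.08 (adjusted p = 0.011), a call lost with a replicate block (adjusted p = 0.0558). Both carry arginine and serine repeats. Of 34 hnRNP and other splicing regulators only RBM5 was called, and it fell by 0.23 ± 0.05 (adjusted p = 0.00796). That 1 of 34 is close to the 3.08% of all genes that fell, and the list's median was 0.07. RBM5 regulates splicing of apoptosis genes. Of 10 other genes known for detained introns only DDX17, an RNA helicase, was called, and it fell by 0.20 ± 0.05 (adjusted p = 0.00601), where 3.08% of all genes fell. That call was lost with median centring (adjusted p = 0.0635).

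None of 10 NMD factors was called by limma or limma voom, with a median of 0.01. An unadjusted p under 0.05 by limma was reached by 2 of them, and by 4273 of the 22284 genes tested. Of 12 RNAs known as NMD targets 4 rose and none fell, where 4.29% of all genes rose and 3.08% fell: SNHG12 by 1.18 ± 0.08 (limma adjusted p = 3.67e-09), GADD45B by 0.85 ± 0.12 (adjusted p = 0.000119), ZFAS1 by 0.52 ± 0.07 (adjusted p = 4.02e-05) and SNHG15 by 0.33 ± 0.08 (adjusted p = 0.0109). SNHG12, ZFAS1 and SNHG15 are snoRNA host genes, and GADD45B is a stress-induced mRNA. Of 7 nuclear-retained RNAs limma called none, with MALAT1 at -0.07 ± 0.13 and NEAT1, the only 1 at an unadjusted p under 0.05, at -0.49 ± 0.17 (adjusted p = 0.1). Limma voom called NEAT1, where it called 1004 of all genes higher and 704 lower. Immediate early mRNAs moved in the same libraries, 8 of 11 higher and none lower, where 4.29% and 3.08% of all genes were, with a median of 0.72. Of those called, EGR3, FOS and FOSB failed a stricter filter of log2 above 0 in at least 13 libraries. Such genes can pass the filter used here through the group where they are high, so nothing is read from this count. The part of these mRNAs in the values of the 10 genes was not tested.

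**Figure D5:**
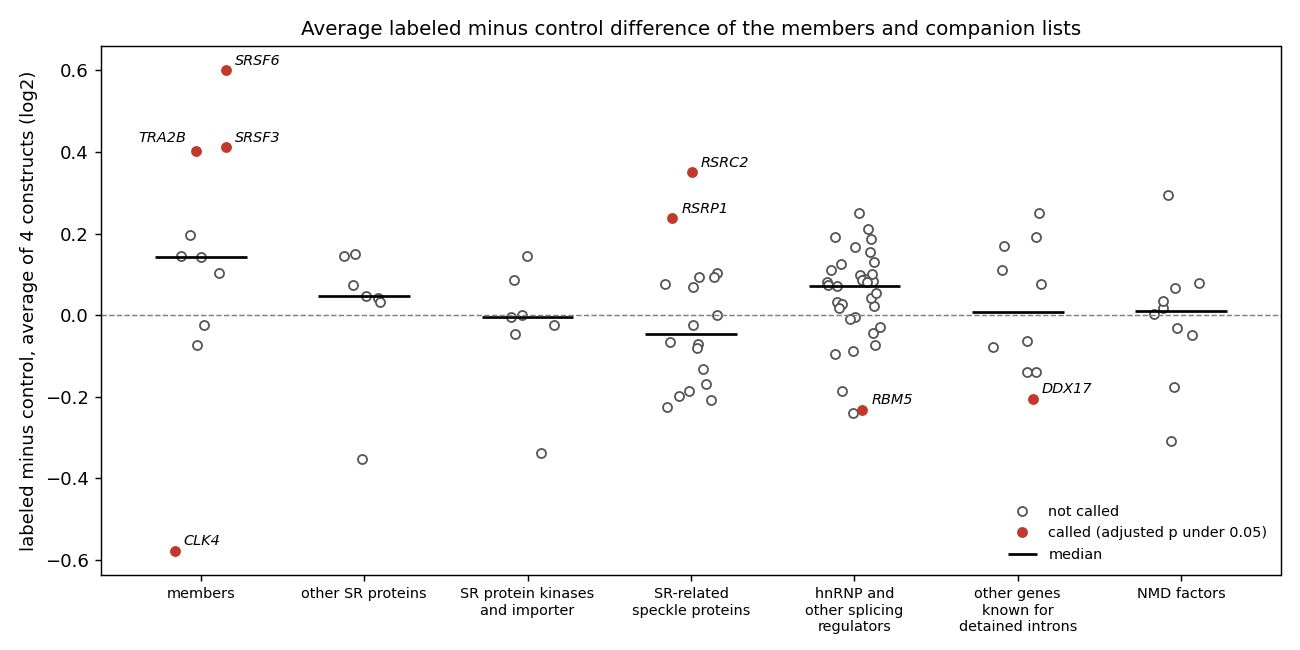
Average labeled minus control difference (log2) of the 10 genes and of 6 lists of splicing and decay genes, 1 point per gene, with genes called by limma filled in red and a line at each median. The other SR proteins lie between -0.35 and 0.15, none called. SRSF6, SRSF3, TRA2B and CLK4, and SRSF7 at 0.20, which was not called, lie outside that range. The 10 genes and the lists were chosen with earlier results of these data known, so nothing is read from this contrast.

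The 10 genes also varied together from library to library. With each construct's mean removed, the 45 pairs of genes had Pearson correlations of -0.53 to 0.93 over the 26 libraries, with a median of 0.62 and 41 above 0. With each group's mean removed, which takes out the labeling difference, all 45 were above 0, at 0.35 to 0.93. These are descriptions, since genes of a library share its depth, scaling and RNA. Of 14885 other genes compared over the 26 libraries, the profiles most like the mean of the 10 were those of SLC16A1 (r = 0.94), DDX3X (0.93), HNRNPH1 (0.93), G3BP1 (0.93), CYCS (0.92), HNRNPDL (0.92), EPHA7 (0.91), RBM39 (0.90), LGR4 (0.90) and STK17A (0.90). The median over all genes compared was -0.03 and the 99th percentile 0.83.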

How the data were processed

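The deposited values are log2 FPKM per gene, made by the authors, for 25745 Ensembl genes in 26 libraries. The submitters' processing notes name hg38, HISAT2 2.1.0 and edgeR (no version). Of the identifiers, 24075 matched GENCODE 29 with their version, 1579 without it and 91 not at all. Undoing the prior count and exon length gave reads that were whole within 0.05 for 100% of values under 100 reads, and for 260 of 260 values of the 10 genes. The scaling of each library was chosen to make low values whole. For 1231 genes a length was searched that made the reads whole, so the 100% is partly set by the procedure. Groups came from the sample titles.

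Genes needed a log2 value over 0 in 3 or more libraries, and the 22284 that passed were fitted with limma 3.58.1 (R 4.3.3, intensity trend, 18 residual degrees of freedom). P-values are two-sided and were adjusted by Benjamini-Hochberg over all genes of a comparison. No pseudocount was added to the authors' own. The procedure was tested on simulated data.

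The 10 genes and all lists were chosen with earlier results of these data known. From each list at most 4 called genes per direction were named, by size, if labeled and control did not overlap in at least 2 constructs. Likeness named the 10 highest correlations. Alternatives covered scaling, filters, prior count, weights, limma voom, a replicate block and leaving out libraries. 1 gene of the splicing regulator list is not reported here and was left out of its counts.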

Additional observations from a re-analysis of the deposited data

Results flagged for a closer look

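SRSF6 in Lyn11 control replicate 1 was at 5.749 log2 FPKM, far above the other 3 Lyn11 controls, which lay between 5.39 and 5.45. Only the Lyn11 groups have at least 4 libraries, so 20 sets of values (10 genes, labeled and control) could be examined in this way, and chance gives about 1 such gap in 20. This was the 1 found. Without any single library, this one included, the Lyn11 difference of SRSF6 ran from 0.24 to 0.54.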

How the results depend on the processing

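The average over the 4 constructs kept 4 called genes under all 36 alternatives, with SRSF6, SRSF3, TRA2B and CLK4 called in each (limma adjusted p up to 0.000431, 0.0194, 0.00237 and 0.017), and no direction reversed. The 16 calls among the other lists became 13 to 18 with other settings and 16 to 20 when 1 library was left out. EGR3, FOS and FOSB were not tested where log2 above 0 was required in at least 13 libraries. A lower count is thus not always a lost call, and these genes were called in all 35 alternatives that tested them. RSRC2 missed the threshold with a replicate block (adjusted p = 0.0558), DDX17 in 1 (0.0635) and ATF3 in 1 (0.0846).

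In Lck the count of 1 became 0 with median centring or no intensity trend, 2 with quantile normalization, limma voom, only the Lck libraries or without the 2 libraries with the most genes at 0 reads, 3 with weights by construct, and 0 to 2 without 1 library (2 without Lyn11 labeled replicate 4, CD28 labeled replicate 2 or PDGFR labeled replicate 1). In CD28 the count of 0 became up to 1, without Lyn11 labeled replicate 1. In PDGFR the count of 0 became 1 with quantile normalization or a prior count of 5 reads, and 0 to 1 without 1 library (Lyn11 labeled replicate 1 or 4). Between inside and outside controls the count of 0 became 3 with quantile normalization, 1 with limma voom or a prior count of 5 reads, and 0 to 1 without 1 library (Lyn11 labeled replicate 1, 2 or 4, Lyn11 control replicate 1 or CD28 labeled replicate 2). The cause was not tested.

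Replicate numbers were not seen to pair samples: deviations of same-numbered libraries correlated at -0.29 to 0.17, 3 of 13 pairs above 0.1. Those of differently numbered libraries correlated at -0.33 to 0.38, 8 of 30 above 0.1. Groups of 3 or 4 libraries are too small to settle whether samples were paired. A replicate block left 4 called on average and moved the PDGFR count to 1.

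Median centring moved the median of all genes in CD28 from 0.03 to 0.15. It changed the split of calls over all genes from 39 higher and 67 lower to 55 and 51 in CD28, and from 1635 and 855 to 2561 and 638 between inside and outside controls. Quantile normalization changed CD28 minus PDGFR controls from 45 and 15 to 22 and 15. With only the libraries of the compared construct, calls over all genes went from 169 higher and 8 lower to 783 and 201 in Lck. They went from 118 and 11 to 126 and 10 in Lyn11, from 39 and 67 to 0 and 0 in CD28, and from 306 and 169 to 14 and 1 in PDGFR. The number of libraries limits each single-construct value.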
